A study of Homo sapiens with 4 samples.

Results

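The genes described here are 36 enzymes of amino acid breakdown, amino acid synthesis and the methionine and folate cycles. They are the rows, among 20226 listed genes, whose symbol equals that of one of these enzymes, and all 36 were found in the table of every library. The cells were Huh7, an established human hepatocellular carcinoma line, and RNA sequencing compared cells in which a short hairpin targets NUP210 (shNUP210, 2 libraries) with cells carrying a control hairpin (shCon, 2 libraries, given the genotype wild type in the labels). All 4 libraries are labelled untreated. NUP210 encodes a membrane protein of the nuclear pore. The labels do not say how many hairpins or clones were used, or whether the 2 libraries of a group were separate cultures, so the p-values below rest on a spread between libraries that may be purely technical.

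The liver takes up most dietary amino acids and degrades them through enzymes that hepatocytes express at high levels, among them the aromatic amino acid oxygenases, serine and histidine lyases and alanine-glyoxylate aminotransferase. Dividing cells, tumour cells included, depend more on the opposite reactions, such as serine synthesis from a glycolytic intermediate, transfer of the serine side-chain carbon to folate, and asparagine and proline synthesis. Several enzymes of the synthetic branch (ASNS, PHGDH, PSAT1, SHMT2, MTHFD2) are known targets of the stress-induced transcription factor ATF4, which binds the amino acid response element with a C/EBP partner. The methionine cycle links both branches: it makes the methyl donor S-adenosylmethionine and passes homocysteine to cysteine synthesis.

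The promoters of 28 of the 36 enzymes were found in the RefSeq windows (300 bases, GRCh38.p14, gene strand); SHMT2 was not among them. The amino acid response element, searched as TGATGNAA on both strands, was present in the windows of ASNS and GOT1, that is in 2 of the 28 enzymes, against 3.62% of 35116 windows. The enzyme count is per gene with a match in any of its windows, while the share is per window, so they are unlike measures. The ASNS and GOT1 windows are shown because they hold the match, which is in capitals, and the GLUD1 window because GLUD1 is one of the called genes below and holds none. The ASNS window (chr7:97872359-97872658, minus strand) has TGATGAAA starting 68 bases before the transcription start, and a second ASNS window further downstream held no match. In the GOT1 window (chr10:99430575-99430874, minus strand) the match lies on the opposite strand and begins 198 bases before the start. The GLUD1 window is chr10:87094794-87095093, minus strand. A match describes these letters and is not evidence of a bound site.
ASNS: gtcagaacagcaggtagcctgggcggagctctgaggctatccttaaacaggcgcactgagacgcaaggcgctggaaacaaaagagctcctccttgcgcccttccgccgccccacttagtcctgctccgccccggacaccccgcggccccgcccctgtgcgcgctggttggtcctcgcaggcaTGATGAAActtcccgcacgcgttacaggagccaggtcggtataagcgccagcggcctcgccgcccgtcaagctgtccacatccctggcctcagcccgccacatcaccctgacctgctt
GOT1: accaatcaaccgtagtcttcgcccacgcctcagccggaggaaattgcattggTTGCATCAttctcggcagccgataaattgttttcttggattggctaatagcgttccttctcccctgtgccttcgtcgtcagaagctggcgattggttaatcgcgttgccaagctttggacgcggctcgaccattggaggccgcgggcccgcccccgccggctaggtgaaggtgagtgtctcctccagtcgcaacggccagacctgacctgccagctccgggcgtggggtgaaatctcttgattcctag
GLUD1: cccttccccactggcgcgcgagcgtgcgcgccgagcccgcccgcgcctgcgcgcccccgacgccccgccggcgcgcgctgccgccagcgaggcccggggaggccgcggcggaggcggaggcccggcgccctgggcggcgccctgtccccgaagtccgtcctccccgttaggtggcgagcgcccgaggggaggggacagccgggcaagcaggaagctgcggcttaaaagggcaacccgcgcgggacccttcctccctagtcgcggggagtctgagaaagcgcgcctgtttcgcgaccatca
The other motif searched, the E-box CACGTG, was in the windows of ALDH18A1, HPD and MTHFD1 (3 of 28 enzymes counted per gene, against 7.26% of all windows).

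Values are TPM, which are scaled to transcript length and library total and keep no read depth, so depth is unknown and no counting interval can be given. The test was limma on log2(TPM + 1) over the 10140 genes with at least 5 TPM in at least 2 libraries, with Benjamini-Hochberg adjusted p over all of them, and genes under an adjusted p of 0.05 were called. Calls numbered 109 lower and 181 higher in shNUP210. In TPM as deposited the fold changes of all tested genes had a median of +0.23 (log2), so changes are also given relative to that median. The 100 most abundant genes of a library held 37.6 and 38.1% of its TPM in shNUP210, against 42.8 and 43.5% in shCon. Since TPM have a fixed total, this bears on the median, but its part in the shift was not tested. NUP210 itself had 10.1 and 9.85 TPM in shNUP210, against 32.8 and 27.3 TPM in shCon (limma adjusted p = 0.0432, and 0.162 to 0.167 with 1 library left out). All 12 hepatocyte markers examined were tested, which goes with the label; 6 fell, against 1.07% of all tested genes, and none rose, against 1.79%. APOA1 (0.404 of the control mean), RBP4 (0.513), AHSG (0.548), TF (0.581), SERPINA1 (0.602) and APOA2 (0.63) were those 6 (limma adjusted p 0.00253 to 0.0133). Each of them averaged over 500 TPM, where tested genes had a median log2 fold change of -0.07. The all-gene shares are therefore not shares among genes of like level. Albumin (ALB) was at 2459 and 2529 TPM in shNUP210 against 2627 and 2332 TPM in shCon and was not called. Of the other markers not called, TTR lay higher, at 397 and 438 TPM in shNUP210 against 288 and 275 TPM in shCon (limma adjusted p = 0.0501). AFP also lay higher, at 5922 and 6054 TPM in shNUP210 against 5622 and 5450 TPM in shCon. APOH lay lower, at 27.2 and 17.4 TPM in shNUP210 against 45.4 and 52.4 TPM in shCon. Of 16 markers of blood, vessel, fibroblast and other cells, 7 had a row, and their summed level was 77.8 and 41.4 TPM in shNUP210 against 172 and 158 TPM in shCon. The largest part of it in each library was LYZ, the lysozyme gene, which fell (26.9 and 19.5 TPM in shNUP210, against 131 and 125 TPM in shCon, limma adjusted p = 0.00977). Of the 4 fibroblast markers with a row, PDGFRB had overlapping groups and the other 3 had both shNUP210 libraries above both shCon libraries: COL1A1 was at 18.9 and 7.55 TPM in shNUP210 against 1.25 and 3.8 TPM in shCon (limma adjusted p = 0.136), COL3A1 at 0.63 and 1.23 TPM in shNUP210 against 0.32 and 0.18 TPM in shCon, and LUM at 4.02 and 3.01 TPM in shNUP210 against 1.71 and 2.64 TPM in shCon. The defining markers PTPRC, CD3E, PECAM1, VWF and HBB had no row in the tables used, and the part of these cells in the results was not tested.

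Of the 36 enzymes, 26 passed the expression filter and were tested, while 10 did not. One enzyme fell and another rose: SHMT2, which makes glycine and a folate-bound carbon unit from serine in mitochondria, was lower in shNUP210, and GLUD1, the mitochondrial glutamate dehydrogenase that releases ammonia from glutamate, was higher. That is 1 of 26 lower, against 1.07% of all tested genes called lower, and 1 of 26 higher, against 1.79% called higher. With the looser criterion of groups that do not overlap and an unadjusted p under 0.05, 9 of the 26 enzymes (34.6%) were lower, against 5.95% of all tested genes, and 2 (7.69%) were higher, against 18.4%. AGXT, which passed the filter through the shCon libraries alone, is among the 9. The median log2 fold change of the 26 was -0.19. Of the 26, 21 (80.8%), AGXT again among them, lay below the all-gene median, against 50.0% of all tested genes by construction.

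**Figure D1:**
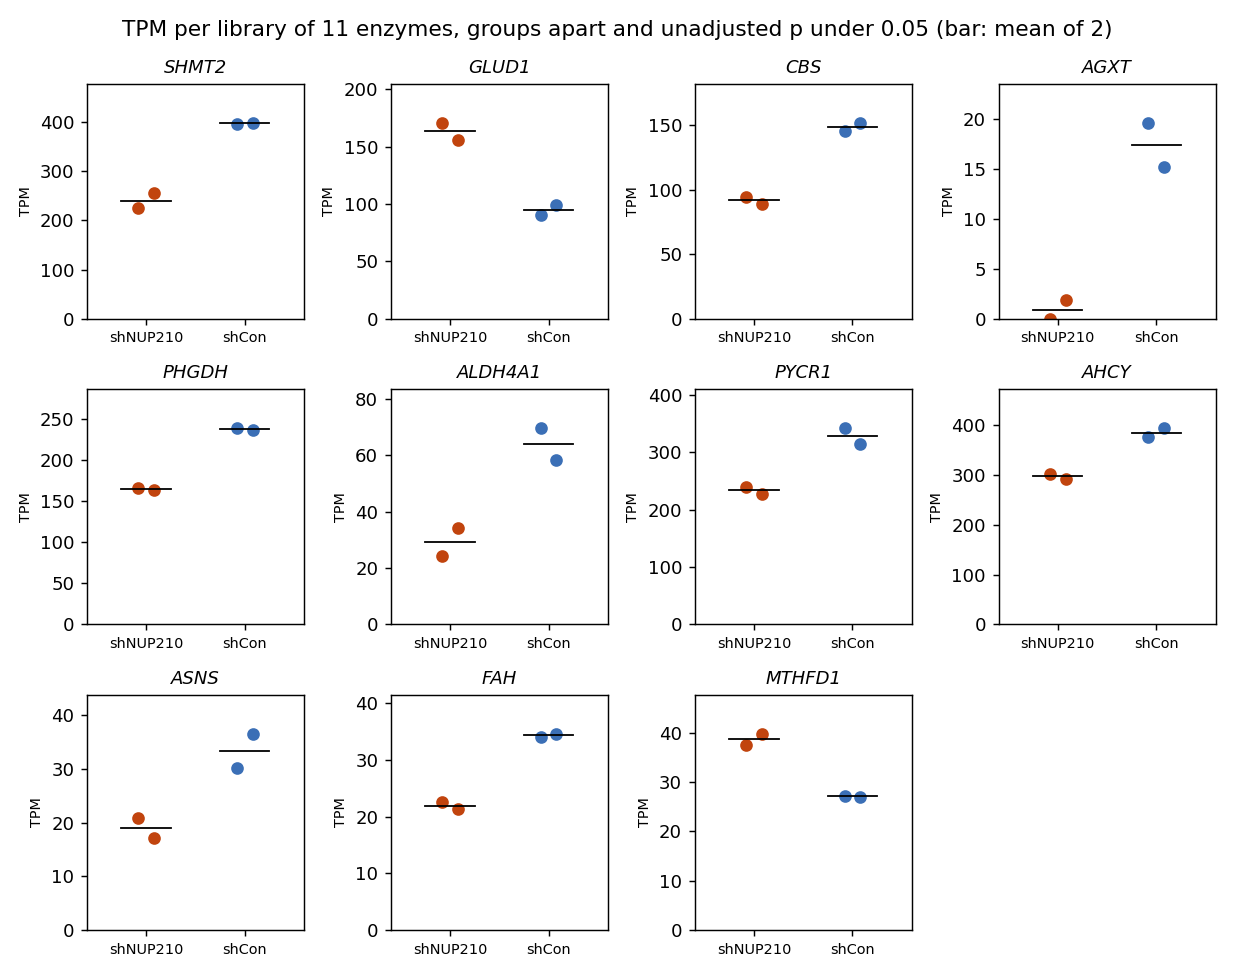
TPM in each library (points) and the mean of the 2 libraries of a group (bar) for the 11 enzymes whose groups did not overlap and whose unadjusted p was under 0.05, ordered by p; each panel has its own axis from 0. SHMT2 sits at 225 and 255 TPM in shNUP210 below 396 and 398 TPM in shCon, while GLUD1 and MTHFD1 are the 2 panels with shNUP210 above shCon.

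Breakdown and synthesis enzymes had similar medians in the main setting, and a difference between the classes was not tested. CBS and CTH, which remove homocysteine and yield cysteine, were counted as breakdown. The synthesis enzymes were GLUL, PHGDH, PSAT1, PSPH, ASNS, PYCR1 and ALDH18A1. SHMT2 and MTHFD2 were counted with the methionine and folate enzymes, not as synthesis. The 10 tested breakdown enzymes had a median log2 fold change of -0.20 and the 7 synthesis enzymes one of -0.23, or -0.43 and -0.46 relative to all tested genes. Below the all-gene median lay 9 of the 10 breakdown enzymes and 6 of the 7 synthesis enzymes. AGXT, which passed the filter through the shCon libraries alone, is among the 9 and enters every breakdown median given here. By library, the breakdown median stood at -0.59 and -0.75 in the shNUP210 libraries, against -0.04 and 0.04 in shCon (log2 relative to the shCon mean and to all genes), and the synthesis median at -0.35 and -0.59 in shNUP210, against 0.03 and -0.03 in shCon. Both classes thus lay lower in each shNUP210 library than in either shCon library. The 2 shCon values of a class are equal and opposite by construction. These values therefore restate the fold changes by library and are no separate check. Both groups of enzymes spanned a wide range, from -3.44 to 0.78 for breakdown and from -0.78 to 0.27 for synthesis. The low end for breakdown is AGXT, and the next lowest breakdown enzyme was ALDH4A1 at -1.11. Which class lay lower, and by how much, varied with the setting. Without shNUP210 replicate 1 the breakdown median was -0.75 and the synthesis median -0.59 relative to all genes. They were -0.59 and -0.35 without shNUP210 replicate 2, and -0.51 and -0.44 without shCon replicate 1. Synthesis was the lower without shCon replicate 2 (breakdown -0.42, synthesis -0.47). Breakdown was the lower without a filter (breakdown and synthesis medians -0.64 and -0.43) and with a filter of 1 TPM in 2 libraries (-0.68 and -0.46). Both of these take in breakdown enzymes that the main filter left out. Breakdown was also the lower after quantile normalization (-0.50 and -0.27). The same held when transaminases were counted as breakdown and the methionine and folate enzymes as synthesis (-0.47 and -0.25). Synthesis was the lower, as in the main setting, with log2(TPM + 5) (breakdown -0.34, synthesis -0.42). It was also the lower under trimmed-mean (-0.44 and -0.48), median-ratio and upper-quartile scaling.

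**Figure D2:**
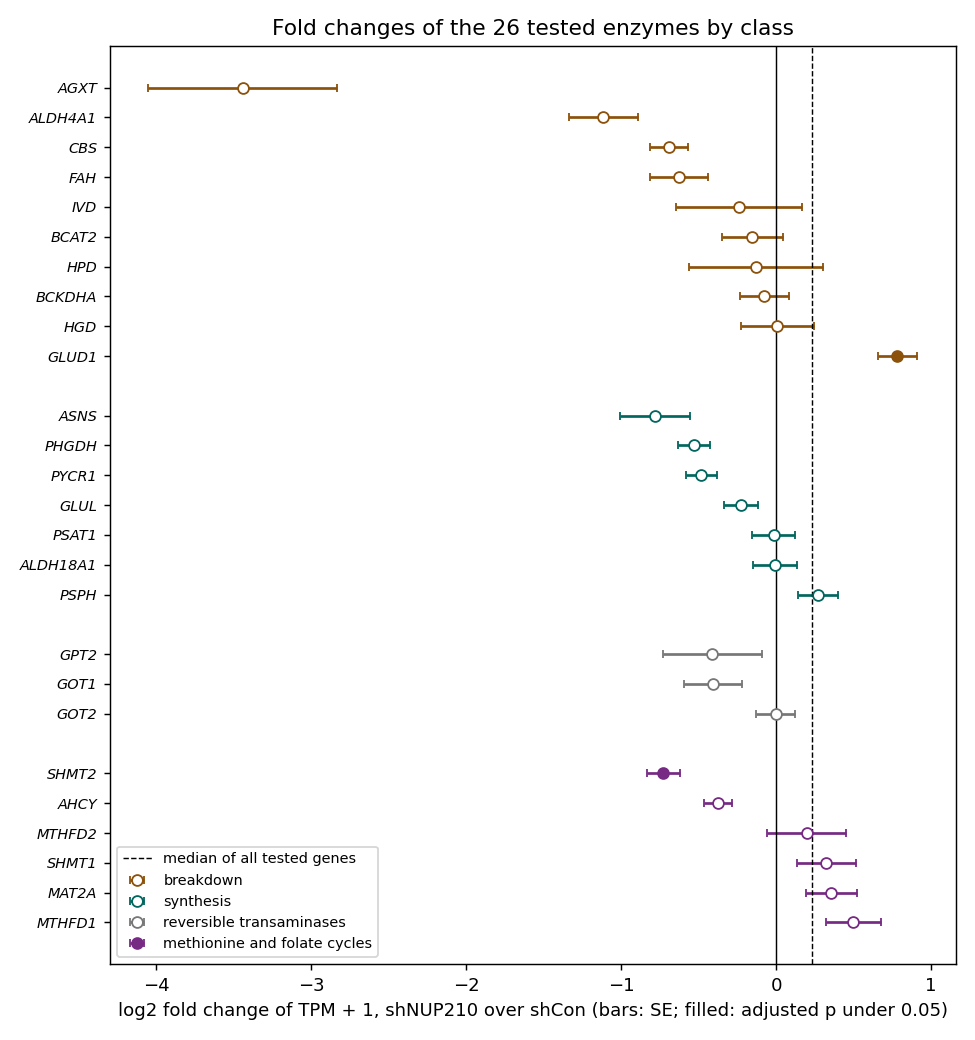
Log2 fold change of TPM + 1 (shNUP210 over shCon, points) with its standard error (bars) for the 26 tested enzymes in 4 classes; filled points passed an adjusted p of 0.05, and the dashed line is the median of all tested genes (0.23). Only GLUD1 and SHMT2 are filled, and points of breakdown and synthesis enzymes overlap on both sides of 0.

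Among the breakdown enzymes, GLUD1 (chromosome 10, 87050486 to 87094866, minus strand) was at 171 and 156 TPM in shNUP210, against 90.2 and 99.0 TPM in shCon. Both knockdown libraries lay above both controls, by a log2 fold change of 0.78 (SE 0.13, limma adjusted p = 0.0455). After scaling by trimmed mean, median ratio, upper quartile or quantile the GLUD1 call was lost, with adjusted p of 0.0956, 0.0954, 0.0778 and 0.0726, while it stayed 0.47 to 0.66 above the all-gene median in every alternative. Its exons share 464 bases with those of FAM35A on the opposite strand, which rose as well (430 and 415 TPM in shNUP210, against 249 and 233 TPM in shCon, limma adjusted p = 0.0243). No source used here says that reads were counted by strand, so reads of the shared bases cannot be told apart. GLUD2, an intronless copy of GLUD1, was at 10.9 and 7.75 TPM in shNUP210 against 5.61 and 4.70 TPM in shCon (adjusted p = 0.273).

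AGXT (chromosome 2, 240868479 to 240880502, plus strand), the peroxisomal enzyme that detoxifies glyoxylate with alanine, had the lowest ratio of knockdown to control among the tested enzymes. It was listed at 0 and 1.84 TPM in the shNUP210 libraries, against 19.6 and 15.2 TPM in the shCon libraries. The groups lay far apart, yet the limma adjusted p was 0.0517 (log2 fold change -3.44, SE 0.61), and AGXT is the one enzyme of the 26 that passed the filter through a single group. With all 4 scalings its adjusted p was under 0.05. Since 1 library is listed at 0, the size of the fold depends on the pseudocount: it was -5.30 with log2(TPM + 0.1) (adjusted p = 0.121) and -1.93 with log2(TPM + 5) (adjusted p = 0.0309). Without shNUP210 replicate 2 it was -4.19, and without replicate 1 it was -2.69.

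CBS (chromosome 21, 43053191 to 43076943, minus strand), which joins homocysteine to serine as the entry to cysteine synthesis, was at 94.4 and 88.9 TPM in shNUP210, against 145 and 152 TPM in shCon. The groups were well separated, with a log2 fold change of -0.69 (SE 0.12) and a limma adjusted p of 0.0501, and all 4 scalings brought it under 0.05 (0.0271 to 0.0406). GRCh38 annotates a near-identical copy, CBSL (chromosome 21, 6444869 to 6468040), which has no row in the tables used, so how reads of the copy were assigned cannot be told from them. The next enzyme of the pathway, CTH, was at 2.13 and 0.38 TPM in shNUP210 against 1.68 and 1.99 TPM in shCon and was not tested.

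ALDH4A1 (chromosome 1, 18871430 to 18902781, minus strand), which finishes proline breakdown to glutamate, was at 24.4 and 34.2 TPM in shNUP210, against 69.6 and 58.2 TPM in shCon. Knockdown libraries had 0.458 of the control mean (log2 fold change -1.11, SE 0.23, limma adjusted p = 0.0675), and trimmed-mean, median-ratio and upper-quartile scaling called it. FAH (chromosome 15, 80152490 to 80186946, plus strand), the last enzyme of tyrosine breakdown, was at 22.5 and 21.3 TPM in shNUP210 against 34.1 and 34.6 TPM in shCon. It did not pass under any of the 16 alternatives (main adjusted p = 0.132, range 0.0753 to 0.332).

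The other tyrosine enzymes had overlapping groups or were barely detected. HGD, which opens the ring of homogentisate, was at 27.7 and 34.3 TPM in shNUP210 against 26.4 and 35.5 TPM in shCon, with overlapping groups. HPD, the step before it, was at 4.21 and 8.13 TPM in shNUP210 against 5.93 and 7.23 TPM in shCon. Further breakdown enzymes with overlapping groups were BCAT2, the mitochondrial branched-chain aminotransferase (52.2 and 39.2 TPM in shNUP210, against 52.2 and 48.8 TPM in shCon), and IVD of leucine breakdown (14.3 and 6.53 TPM in shNUP210, against 11.5 and 11.8 TPM in shCon). BCKDHA, a subunit of the branched-chain ketoacid dehydrogenase, was at 45.4 and 48.9 TPM in shNUP210 against 50.2 and 49.4 TPM in shCon, a log2 difference of -0.08 with an SE of 0.16.

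Many enzymes typical of the mature liver were barely detected in both groups. The 10 untested enzymes summed to 12.6 and 15.6 TPM in the shNUP210 libraries, against 23.9 and 12.7 TPM in the shCon libraries, less than FAH alone in each of the 4 libraries. TAT, which starts tyrosine breakdown, was at 0.29 and 0 TPM in shNUP210 against 1.41 and 0.12 TPM in shCon. TDO2, which starts the kynurenine pathway from tryptophan, was listed at 0 and 0.82 TPM in shNUP210 and at 0 in both shCon libraries. SDS, which turns serine into pyruvate, was listed at 0 in both shNUP210 libraries, against 0.44 and 1.04 TPM in shCon.

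Histidine ammonia-lyase (HAL) was at 0.30 and 1.52 TPM in shNUP210 against 2.79 and 1.56 TPM in shCon. Liver-type glutaminase (GLS2) was at 1.39 and 3.12 TPM in shNUP210 against 3.12 and 3.44 TPM in shCon, and 3193 of its 4141 exon bases are shared with SPRYD4. GNMT, a glycine methyltransferase that consumes S-adenosylmethionine, was at 0.67 and 0 TPM in shNUP210 against 0.57 and 0 TPM in shCon. None of these was tested.

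**Figure D3:**
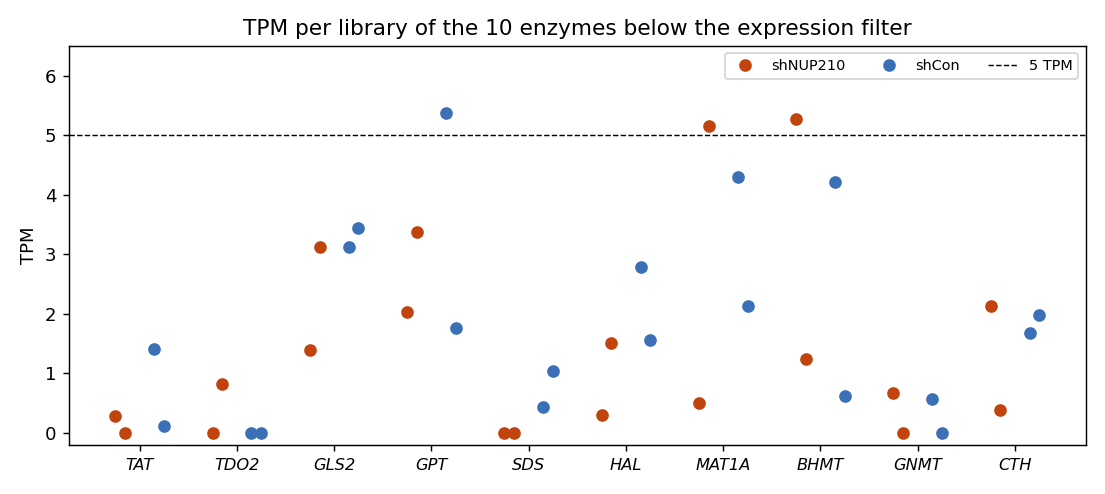
TPM in each library for the 10 enzymes that did not reach 5 TPM (dashed line) in 2 libraries, with shNUP210 points left of shCon points. All lie between 0 and 5.37 TPM. The shNUP210 and shCon points do not overlap for SDS and HAL, but the nearest HAL points are 1.52 TPM in shNUP210 and 1.56 TPM in shCon.

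None of the 3 enzymes of serine synthesis was called, and differences between them were not tested. PHGDH (chromosome 1, 119648411 to 119744226, plus strand), which commits a glycolytic intermediate to serine, was at 165 and 163 TPM in shNUP210, against 239 and 237 TPM in shCon (log2 fold change -0.53, SE 0.10, limma adjusted p = 0.0587). PSAT1, the aminotransferase of the middle step, was at 87.2 and 98.0 TPM in shNUP210 against 97.9 and 89.5 TPM in shCon. PSPH, the phosphatase of the final step, was at 158 and 170 TPM in shNUP210 against 146 and 126 TPM in shCon (log2 fold change 0.27, SE 0.13, adjusted p = 0.256).

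Thus PHGDH lay lower, PSAT1 overlapped and PSPH lay higher in the knockdown libraries. Trimmed-mean, median-ratio and upper-quartile scaling called PHGDH lower. The ratio of PSPH to PHGDH within a library, which a single factor per library cannot alter, was 0.955 and 1.04 in shNUP210 against 0.61 and 0.533 in shCon. The summed level of the 3 enzymes was 411 and 431 TPM in shNUP210 against 482 and 453 TPM in shCon.

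Of the folate enzymes that take over the serine carbon, SHMT2 alone passed the test. SHMT2 (chromosome 12, 57229327 to 57234935, plus strand) was at 225 and 255 TPM in shNUP210, against 396 and 398 TPM in shCon, 0.604 of the control mean (log2 fold change -0.73, SE 0.10, limma adjusted p = 0.036). It stayed called after all 4 scalings (0.0217 to 0.034) and lay 0.79 to 1.07 below the all-gene median in every alternative. Its cytosolic counterpart SHMT1 was at 44.7 and 38.1 TPM in shNUP210 against 34.9 and 30.8 TPM in shCon (adjusted p = 0.339), with its groups apart in the other direction; the difference between the isozymes was not tested. SHMT2 lost its call when any library was left out (adjusted p 0.115 to 0.167), as did GLUD1 (0.155 to 0.173).

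MTHFD1 (chromosome 14, 64388031 to 64463457, plus strand), the cytosolic enzyme that interconverts folate-bound carbon units, was at 37.6 and 39.9 TPM in shNUP210 against 27.3 and 27.0 TPM in shCon (log2 fold change 0.50, SE 0.18, limma adjusted p = 0.172). MTHFD2, its mitochondrial relative, was at 20.4 and 28.4 TPM in shNUP210 against 19.3 and 22.6 TPM in shCon, with overlapping groups, and shares 1324 of 4870 exon bases with SLC4A5. Summed, SHMT2 and MTHFD2 were at 245 and 283 TPM in shNUP210 against 415 and 420 TPM in shCon, and SHMT1 and MTHFD1 at 82.2 and 78.0 TPM in shNUP210 against 62.2 and 57.7 TPM in shCon. The mitochondrial pair was the more abundant in all 4 libraries, and SHMT2 made up most of its sum in each. Within libraries the SHMT1 to SHMT2 ratio was 0.199 and 0.15 in shNUP210 against 0.0882 and 0.0773 in shCon, and the MTHFD1 to SHMT2 ratio 0.167 and 0.156 against 0.0689 and 0.0678 in shCon. These ratios were chosen after the values had been seen and carry no test. The same holds for the ratios of PSPH to PHGDH, PYCR1 to ALDH18A1 and GLUL to GLUD1.

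**Figure D4:**
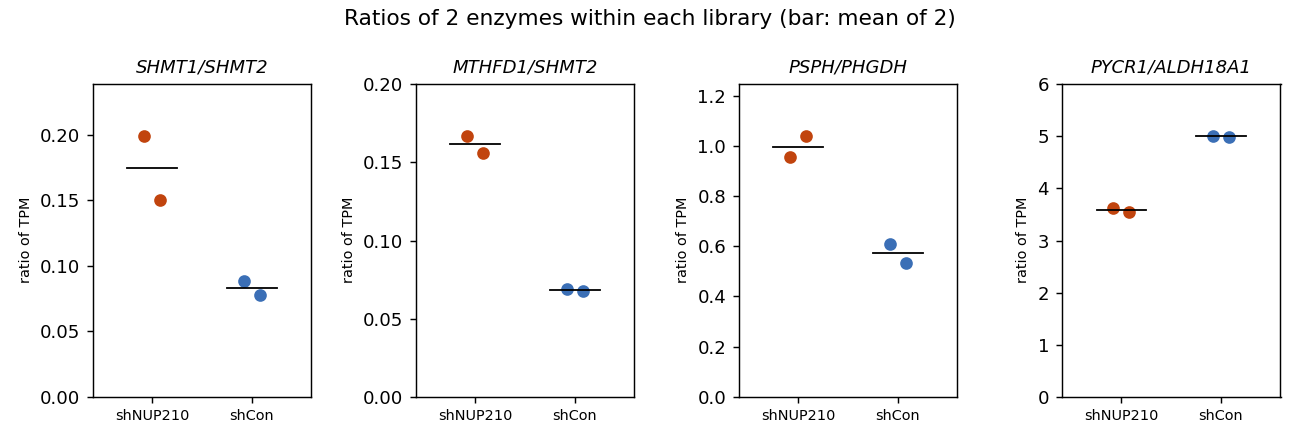
Ratio of the TPM of 2 enzymes within each library (points) and the mean of the 2 libraries (bar), on axes from 0. SHMT1/SHMT2, MTHFD1/SHMT2 and PSPH/PHGDH are higher in both shNUP210 libraries than in both shCon libraries, and PYCR1/ALDH18A1 is lower.

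Neither enzyme of proline synthesis was called. PYCR1 (chromosome 17, 81932384 to 81942412, minus strand), the reductase that finishes proline in mitochondria, was at 240.02 and 228 TPM in shNUP210, against 341 and 314 TPM in shCon (log2 fold change -0.48, SE 0.10, limma adjusted p = 0.0714). ALDH18A1, which makes the precursor, was at 66.1 and 64.2 TPM in shNUP210 against 68.2 and 62.8 TPM in shCon, a log2 difference of -0.01 (SE 0.14). The ratio of PYCR1 to ALDH18A1 was 3.63 and 3.55 in shNUP210 against 5.01 and 4.99 in shCon. PYCR1 was called lower by trimmed-mean, median-ratio and upper-quartile scaling. An antisense gene, RP11-498C9.13, shares 450 exon bases with it and was at 786 and 986 TPM in shNUP210 against 1048 and 998 TPM in shCon.

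ASNS (chromosome 7, 97852118 to 97872542, minus strand), asparagine synthetase, whose promoter is shown above, was at 20.8 and 17.1 TPM in shNUP210, against 30.1 and 36.5 TPM in shCon. Knockdown libraries had 0.569 of the control mean (log2 fold change -0.78, SE 0.22), but the limma adjusted p was 0.12 and stayed between 0.0817 and 0.354 in the 16 alternatives. GLUL, glutamine synthetase and the most abundant of the 36 enzymes, was at 587 and 495 TPM in shNUP210 against 647 and 616 TPM in shCon (adjusted p = 0.258). With GLUD1 higher, the ratio of GLUL to GLUD1, also chosen after the values had been seen, was 3.44 and 3.17 in shNUP210 against 7.17 and 6.22 in shCon.

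In the methionine cycle, AHCY (chromosome 20, 34280268 to 34311802, minus strand), which clears S-adenosylhomocysteine, was at 303 and 292 TPM in shNUP210, against 377 and 394 TPM in shCon (log2 fold change -0.37, SE 0.09, limma adjusted p = 0.0898). It was called lower after trimmed-mean, median-ratio and upper-quartile scaling. Of the S-adenosylmethionine synthetases, MAT2A, the form of dividing and non-liver cells, was at 47.2 and 52.2 TPM in shNUP210 against 38.3 and 39.0 TPM in shCon (adjusted p = 0.253), and MAT1A, the form of adult liver, at 0.51 and 5.15 TPM in shNUP210 against 4.30 and 2.13 TPM in shCon. MAT2A exceeded MAT1A in all 4 libraries; 558 of its 4487 exon bases are shared with GGCX on the opposite strand. BHMT, which remethylates homocysteine with betaine, was at 5.28 and 1.24 TPM in shNUP210 against 4.22 and 0.62 TPM in shCon.

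The reversible transaminases gave no call. GOT2, the mitochondrial aspartate aminotransferase, was at 88.2 and 91.3 TPM in shNUP210 against 89.0 and 91.1 TPM in shCon, with a log2 difference of -0.0042 (SE 0.13). Cytosolic GOT1 was at 29.5 and 33.3 TPM in shNUP210 against 45.1 and 39.0 TPM in shCon (adjusted p = 0.247). The alanine aminotransferase GPT2 was at 36.2 and 19.3 TPM in shNUP210 against 33.3 and 38.0 TPM in shCon, and its cytosolic partner GPT at 2.04 and 3.38 TPM in shNUP210 against 5.37 and 1.77 TPM in shCon.

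How many of these enzymes were called lower depended on how the libraries were scaled. Trimmed-mean, median-ratio and upper-quartile scaling each called 7 of the 26 lower and none higher, against 2.47%, 2.45% and 2.27% of all tested genes called lower and 0.769%, 0.799% and 0.907% called higher. The 7 were SHMT2, CBS, AGXT, PHGDH, PYCR1, AHCY and ALDH4A1. AGXT, counted here and in some settings below, passed the filter through the shCon libraries alone. Quantile normalization called SHMT2, CBS and AGXT lower, against 1.16% of all genes, and none higher, against 0.858%. With log2(TPM + 5) GLUD1 was called higher (2.14% of all genes were) and SHMT2, CBS and AGXT lower (1.25% were), and with log2(TPM + 0.1) SHMT2 was called lower (0.848% were) and none higher (1.21% were). A filter on a mean of 5 TPM over the 4 libraries called GLUD1 higher (2.06% of genes were) and SHMT2 and CBS lower (1.18% were). The 4 scalings (trimmed mean, median ratio, upper quartile and quantile) bring the all-gene median to between 0.01 and 0.04. Over all genes they gave 78 higher and 250 lower (trimmed mean), 81 and 248 (median ratio), 92 and 230 (upper quartile) and 87 and 118 (quantile). TPM as deposited gave 181 and 109.

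**Figure D5:**
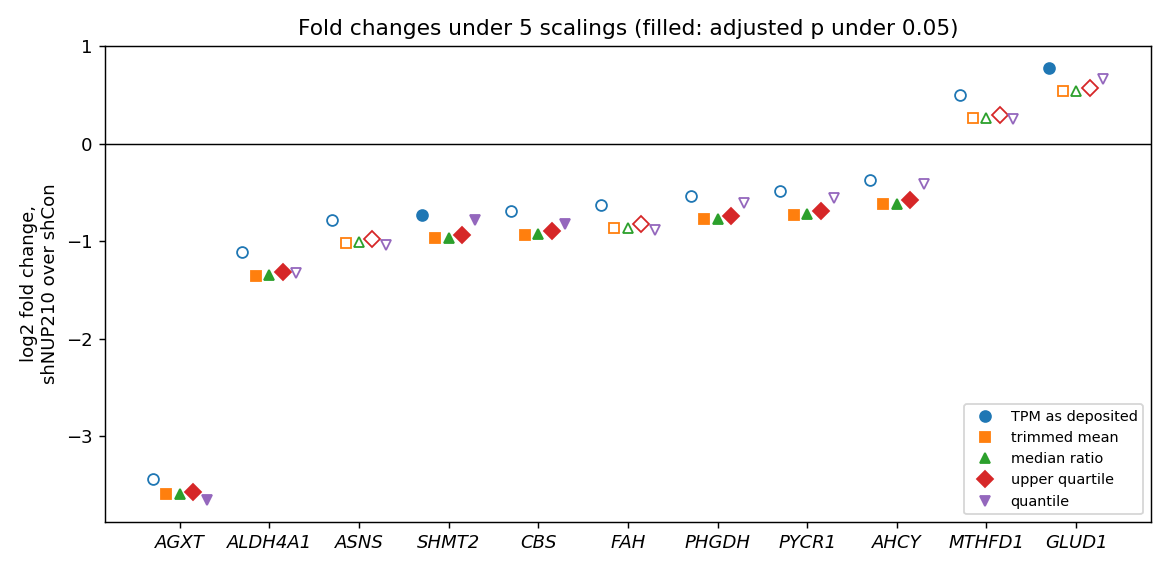
Log2 fold change (shNUP210 over shCon) of the 11 enzymes in TPM as deposited and under 4 scalings; filled symbols passed an adjusted p of 0.05. SHMT2 is filled under all 5, GLUD1 in TPM as deposited alone, and ASNS, FAH and MTHFD1 under none.

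More abundant genes lay lower as a whole, which bears on where an enzyme stands relative to all genes. Genes at 20 to 100 TPM had a median log2 fold change of 0.23, and the 15 enzymes in that range had one of -0.02. Genes at 100 to 500 TPM had a median of 0.09, and the 7 enzymes there, SHMT2 and GLUD1 among them, had one of -0.48. Of those 7 enzymes, 5 lay below the median of genes of like level, as did 12 of the 15.

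Other genes of the same pathways gave 2 calls, both lower, where 1.07% of all tested genes were called lower and 1.79% higher. Of 11 tested further folate genes, 1 fell and none rose: ALDH1L1, the cytosolic dehydrogenase that removes formyl-folate in hepatocytes, was at 3.26 and 3.39 TPM in shNUP210 against 22.4 and 18.4 TPM in shCon (limma adjusted p = 0.0328), and it passed the filter through shCon alone. Of 13 tested genes of methionine, methyl and sulfur metabolism, 1 fell: GAMT, which uses S-adenosylmethionine to make creatine, was at 388 and 415 TPM in shNUP210 against 785 and 835 TPM in shCon (log2 fold change -1.01, SE 0.09, limma adjusted p = 0.00999). Both were called in all 4 scalings and by no fit with 1 library left out (adjusted p 0.129 to 0.156 for ALDH1L1 and 0.0635 to 0.116 for GAMT). SARDH, the sarcosine dehydrogenase, was at 42.95 and 48.0 TPM in shNUP210 against 84.6 and 72.7 TPM in shCon (adjusted p = 0.0721). CSAD, of taurine synthesis, was at 8.71 and 6.74 TPM in shNUP210 against 1.28 and 0.80 TPM in shCon (adjusted p = 0.0844), and it passed the filter through shNUP210 alone.

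No gene was called among 7 tested of aromatic amino acid breakdown, 9 of glycine, histidine and lysine breakdown, 15 of branched-chain breakdown and 6 of proline and glutamate metabolism. In the kynurenine pathway, KMO was at 35.1 and 34.6 TPM in shNUP210 against 22.6 and 21.3 TPM in shCon (adjusted p = 0.124), and AFMID at 57.0 and 41.9 TPM in shNUP210 against 33.3 and 17.6 TPM in shCon (adjusted p = 0.162). SDSL, a serine dehydratase-like gene, was at 12.2 and 16.6 TPM in shNUP210 against 30.9 and 31.7 TPM in shCon (adjusted p = 0.0763). FTCD, which ends histidine breakdown by passing a carbon unit to folate, was at 4.06 and 5.48 TPM in shNUP210 against 12.0 and 14.6 TPM in shCon (adjusted p = 0.0982).

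Genes that respond to ATF4 had a median log2 fold change of -0.21 over 14 tested. Of the 14, 13 lay below the all-gene median. Of these, 2 fell, against 1.07% of all tested genes, and none rose, against 1.79%: STC2, a secreted glycoprotein, was at 11.8 and 16.3 TPM in shNUP210 against 50.4 and 38.4 TPM in shCon (limma adjusted p = 0.0456), and CEBPB, a C/EBP transcription factor, at 96.1 and 100.1 TPM in shNUP210 against 184 and 163 TPM in shCon (limma adjusted p = 0.0421). ATF4 itself was at 227 and 256 TPM in shNUP210 against 266 and 283 TPM in shCon (adjusted p = 0.348). The 12 aminoacyl-tRNA synthetases, which are also known ATF4 targets, had no call and a median log2 fold change of 0.25, close to that of all genes. Of 9 tested liver transcription factors, CEBPA fell (346 and 331 TPM in shNUP210, against 528 and 515 TPM in shCon, limma adjusted p = 0.0334), and the other 8 were not called. Among the 8, FOXA3 lay lower at 44.1 and 46.7 TPM in shNUP210 against 73.7 and 72.0 TPM in shCon (limma adjusted p = 0.0749). PROX1 lay higher at 30.1 and 24.0 TPM in shNUP210 against 20.5 and 12.5 TPM in shCon (limma adjusted p = 0.224). FOXA2 also lay higher, at 72.1 and 76.1 TPM in shNUP210 against 58.2 and 56.05 TPM in shCon (limma adjusted p = 0.192). Of the 9, 4 lay below the all-gene median and 5 above it. With 1 library left out, where the lone library is assumed to vary like those of the other group, STC2, CEBPB and CEBPA were not called (adjusted p 0.125 to 0.166, 0.152 to 0.162 and 0.14 to 0.154). Over the 16 alternatives the log2 fold change relative to all genes was -2.07 to -1.57 for STC2, -1.11 to -0.96 for CEBPB and -0.89 to -0.67 for CEBPA.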

How the data were processed

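RNA was isolated from Huh7 cells with Trizol and sequenced from TruSeq libraries, per the labels' protocols. The authors deposited 1 table per library, whose values are TPM (totals of 999992.7 to 999997.8). The submitters' processing notes name hg38, Trimmomatic, STAR, RSEM and DESeq; versions, roles and the annotation release are not given in the sources used here. Groups were taken from the titles. TPM were used as deposited in limma 3.58.1 under R 4.3.3, as log2(TPM + 1) values with a trended prior variance, two-sided, for genes with at least 5 TPM in 2 libraries. The fit was tested on simulated data. A fold change on this scale understates changes of low genes. No permutation test was run, since with 2 libraries a group its exact p cannot be under 0.33. The enzymes, their classes, the other gene lists and the fit were chosen with earlier results of these data known. Enzymes given in full are those called, or with groups apart and an unadjusted p under 0.05. From the other lists, called genes and some of the 4 with the largest fold changes were given. ALB, AFP, TTR, ATF4, COL3A1 and LUM were added after their values were seen. Symbols that differ were matched through current names. Positions and exon overlaps are from GENCODE 29 (GRCh38), and promoter windows from RefSeq (GRCh38.p14). Some genes of the other lists are not reported here.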

Additional observations from a re-analysis of the deposited data

How the results depend on the processing

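Depth is unknown in TPM, and 2 libraries a group limit every test. Against 290 genes and 2 enzymes called, no filter gave 14 and 0, a filter of 1 TPM in 2 libraries 57 and 0, a replicate block 63 and 0, and limma without the mean-variance trend 0 and 0 (with 2290 genes at an unadjusted p under 0.05). Leaving out 1 library gave 4 to 27 genes and 0 enzymes, with the fewest genes without shCon replicate 2; the lone library of a group is then assumed to vary like the others. Enzymes called numbered 7 under trimmed-mean, median-ratio and upper-quartile scaling, 1 with log2(TPM + 0.1) and 4 with log2(TPM + 5). The numbers of the replicates do not show pairing in the labels, and deviations of same-numbered libraries correlated at 0.0231. The breakdown median relative to all genes (-0.43) was -0.64 with no filter, -0.68 with 1 TPM in 2 libraries and -0.34 with log2(TPM + 5), and ranged from -0.75 to -0.42 with 1 library left out. Without a filter, or with 1 TPM in 2 libraries, that median took in breakdown enzymes that the main filter left out. The synthesis median (-0.46) was -0.27 after quantile normalization and -0.25 when the methionine and folate enzymes were counted as synthesis, and ranged from -0.59 to -0.35 with 1 library left out. Signs turned only for enzymes that were not called. HGD was at -0.23, -0.22, -0.19 and -0.24 and MTHFD2 at -0.0374, -0.0331, -0.0016 and -0.0741 under trimmed-mean, median-ratio, upper-quartile and quantile scaling. With 1 library left out the log2 fold change ranged from -0.54 to 0.27 for HPD, -0.20 to 0.21 for HGD, -0.0286 to 0.0202 for GOT2, -0.0999 to 0.0658 for PSAT1, -0.85 to 0.0233 for GPT2, -0.034 to 0.43 for MTHFD2, -0.0651 to 0.0519 for ALDH18A1, -0.36 to 0.0464 for BCAT2 and -0.75 to 0.27 for IVD. The cause of these differences was not tested.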
